A study of Drosophila melanogaster and Drosophila yakuba and Drosophila virilis with 6 samples.

Results

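The salivary glue genes of Drosophila encode the secreted proteins with which a larva fixes its puparium to a surface. Their transcripts were followed here in imaginal discs, tissues not known to make glue. The 6 genes Sgs1, Sgs3, Sgs4, Sgs5, Sgs7 and Sgs8 were taken by their D. melanogaster gene identifiers, among 37022 gene identifiers with at least 1 tag in any library. All 6 had tags in D. melanogaster, where 12681 genes were detected, and by the gene mapping 3 of them had tags in D. yakuba and 1 in D. virilis.

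The libraries came from 2 kinds of imaginal disc: eye-antennal discs, which give rise to eye, antenna and head capsule of the adult, and wing discs, which give rise to wing and notum. Discs were taken from larvae of the third instar at the wandering stage. D. melanogaster was the CantonS strain, and the labels name no strain for D. yakuba or D. virilis. No group carried a transgene, an introduced mutation or a treatment per the labels. Each species and disc gave 1 library of NlaIII tag profiling, in which transcripts are cut at a short site and a 22-base tag beside it is counted.

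Glue proteins are made by the larval salivary glands, under control of the steroid hormone ecdysone, stored in large secretory granules and expelled at puparium formation. In D. melanogaster Sgs1, Sgs3 and Sgs4 encode mucin-like proteins with many repeats that carry sugars, while Sgs5, Sgs7 and Sgs8 encode small proteins rich in cysteine. The labels do not state which other tissue was cleared from the discs.

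In the BDGP6.54 annotation Sgs8 (FBgn0003378, 3L:11508967-11509394, minus strand), Sgs7 (FBgn0003377, 3L:11509861-11510247, plus strand) and Sgs3 (FBgn0003373, 3L:11512221-11513402, plus strand) form a cluster of 4436 bp. The others lie alone: Sgs1 (FBgn0003372) at 2L:4937409-4941423, Sgs4 (FBgn0003374) at X:3250089-3251040 and Sgs5 (FBgn0003375) at 3R:17595362-17596112, all on the plus strand. All 6 are protein coding genes. Sgs4 has 1 exon, Sgs5 has 3 and each of the other 4 has 2.

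In D. melanogaster all 6 glue genes had lower levels in eye-antennal discs than in wing discs. Together they gave 412 tags in eye-antennal and 5323 tags in wing discs. Per 1000000 gene tags, written TPM although the unit counts tags, these are 190.5 (exact Poisson 95% interval 172.6 to 209.8) and 2887 (2810 to 2965). The summed level was thus 16.8-fold (15.2 to 18.7) lower in eye-antennal discs after scaling by TMM factors, the trimmed means of edgeR. Each group was 1 library, so no difference between discs of a species had a replicate check. Intervals cover counting error only, and fewer cells of a type cannot be told apart from less RNA per cell.

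Among the mucin-like genes, Sgs3 had 221 tags in eye-antennal discs and 2923 in wing discs. These are 102 (89.2 to 117) and 1585 (1528 to 1644) TPM, which placed Sgs3 at rank 1519 among genes of eye-antennal discs and at rank 88 in wing discs. Sgs4 had 5 and 46 tags, or 2.31 (0.751 to 5.40) TPM in eye-antennal and 24.9 (18.3 to 33.3) in wing discs. Sgs4 was therefore near the detection limit in eye-antennal discs, where a count of 0 would allow up to 1.39 TPM. Sgs1, which encodes a long repeat-rich glue protein, had 10 tags in eye-antennal and 31 in wing discs, or 4.62 (2.22 to 8.50) and 16.8 (11.4 to 23.9) TPM. The intervals of the 2 discs did not overlap for Sgs3, Sgs4 or Sgs1.

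Of the small cysteine-rich proteins, Sgs5 had 68 tags in eye-antennal and 1568 in wing discs, or 31.4 (24.4 to 39.9) and 850.4 (808.8 to 893.5) TPM. The gene stood at rank 3764 in eye-antennal and at rank 152 in wing discs. Sgs7 had 69 and 456 tags, which is 31.9 (24.8 to 40.4) TPM in eye-antennal and 247 (225 to 271) in wing discs. Its neighbour Sgs8 had 39 and 299 tags, or 18.03 (12.8 to 24.7) and 162 (144 to 182) TPM in the same libraries. Sgs5 and Sgs7 had about the same level in eye-antennal discs, with overlapping intervals, but were far apart in wing discs. Sgs7 and Sgs8 encode similar proteins. How tags with several matches were treated is not given in the sources used here, so the split of tags between them, and between Sgs5 and its paralogue Sgs5bis, is uncertain.

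The order of tag counts in wing discs ran from Sgs3 through Sgs5, Sgs7, Sgs8 and Sgs4 to Sgs1. The intervals of neighbours in this order were separate except for Sgs4 and Sgs1. In eye-antennal discs Sgs3 was again first. Sgs7, Sgs5 and Sgs8 followed, with overlapping intervals between Sgs5 and Sgs8, and Sgs1 and Sgs4 came last with overlapping intervals. A transcript gives its tags mostly at 1 site, so counts were not divided by length, and the order of genes also depends on how well each site is cut and matched.

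**Figure D1:**
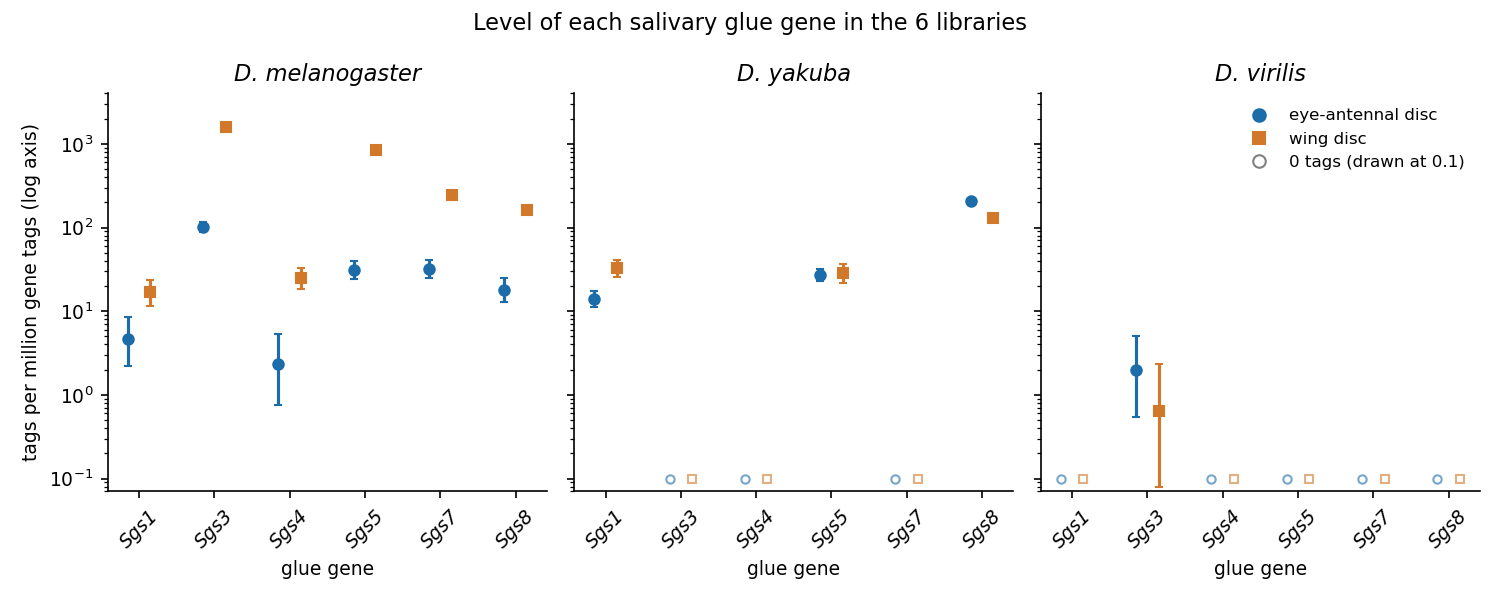
TPM (tags per 1000000 gene tags, log axis) of each glue gene in the eye-antennal (circles) and wing (squares) library of each species, with exact Poisson 95% intervals and open symbols at 0.1 for genes with 0 tags. In D. melanogaster every circle lies below its square, from 4.62 against 16.8 for Sgs1 to 31.4 against 850.4 for Sgs5. In D. yakuba the gene paired with Sgs8 lies higher in eye-antennal discs. In the gene mapping of D. virilis only Sgs3 has tags.

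The size of the disc difference varied among the 6 genes of D. melanogaster. Sgs5 was 30.1-fold (exact conditional 95% interval 23.6 to 38.9) and Sgs3 17.2-fold (15.03 to 19.9) lower in eye-antennal discs. Sgs4 was 12.0-fold (4.78 to 38.7), Sgs8 9.99-fold (7.14 to 14.3) and Sgs7 8.61-fold (6.68 to 11.3) lower there. Sgs1 had the smallest difference, 4.04-fold (1.93 to 9.24) lower in eye-antennal discs. The intervals of Sgs5 and Sgs3 did not overlap each other, and both lay apart from those of Sgs8, Sgs7 and Sgs1, while Sgs4, with few tags, overlapped with each of the others.

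For counting, a ratio had to be 2-fold or more at the end of its interval nearer to 1. By this rule 0 of the 6 glue genes were counted as higher in eye-antennal discs and 5 in wing discs, and Sgs1 was not counted. Among the 8134 D. melanogaster genes with 10 or more tags in all, 7.97% were counted as higher in eye-antennal and 6.8% in wing discs. Scaling by the total of gene tags shifted each log2 ratio of D. melanogaster by 0.15 towards eye-antennal discs and gave 778 genes higher in eye-antennal and 436 in wing discs, against 648 and 553. The same 5 of 6 glue genes were counted under that scaling. The median log2 ratio (eye-antennal over wing) of the glue genes was -3.38, against -0.01 over all genes. From the wing end of the ranking by log2 ratio, Sgs5 stood at place 53 of 8134, Sgs3 at 83, Sgs4 at 115, Sgs8 at 133, Sgs7 at 153 and Sgs1 at 395.

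**Figure D2:**
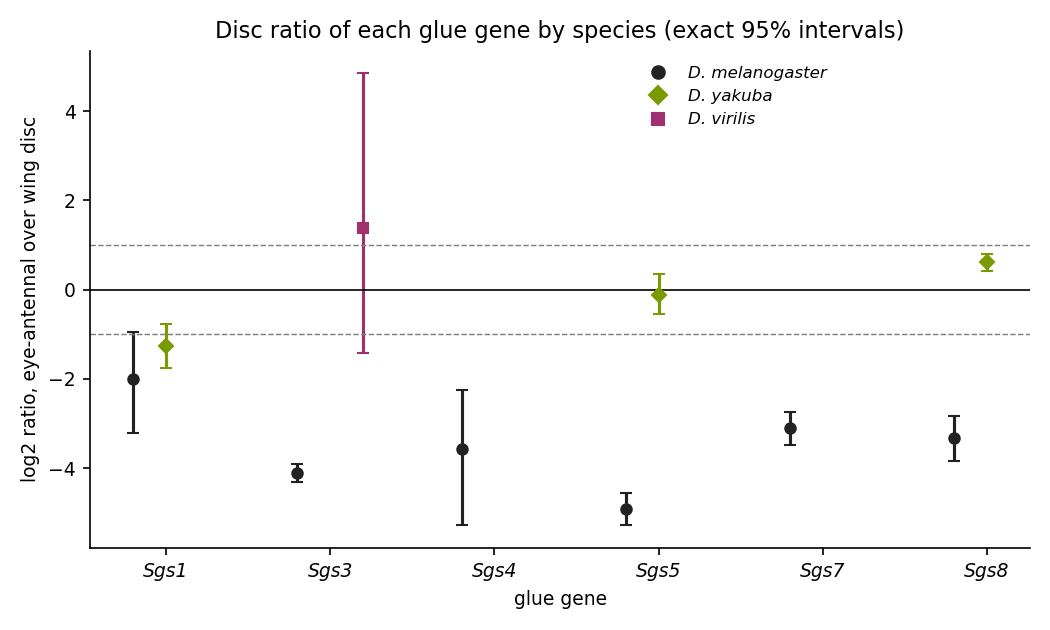
Log2 ratio of eye-antennal over wing discs for each glue gene and species, with exact 95% intervals, a solid line at equal levels and dashed lines at 2-fold. All 6 D. melanogaster genes lie below 0, from -1.97 for Sgs1 to -4.90 for Sgs5 on the scale with 0.5 tags added. In D. yakuba Sgs5 lies near 0 and the gene paired with Sgs8 above it.

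**Figure D3:**
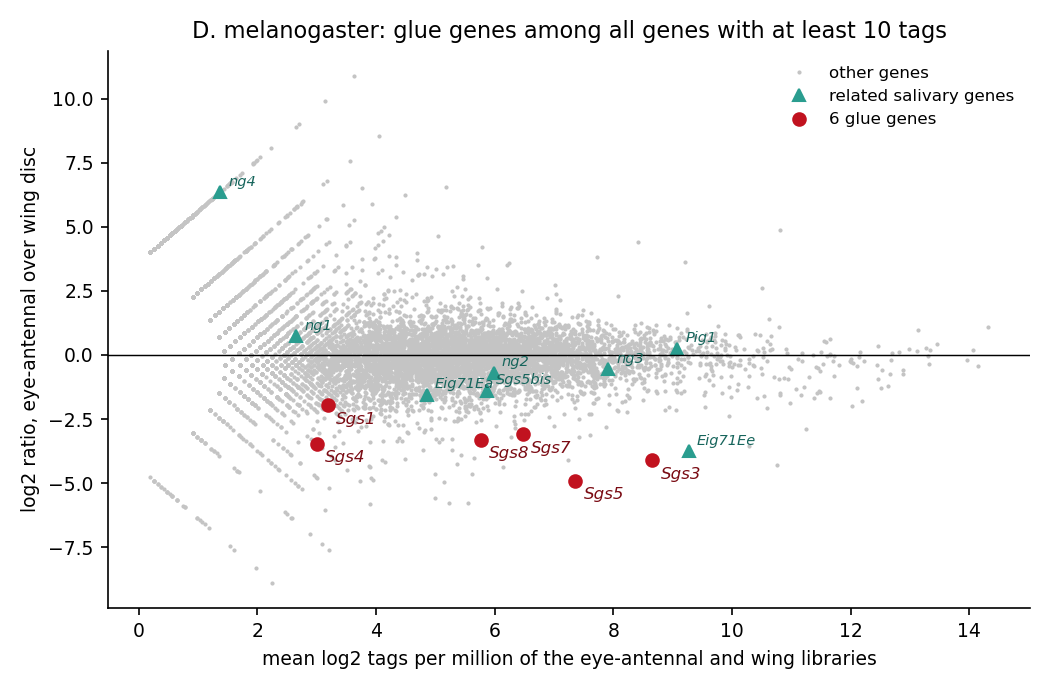
Log2 ratio of eye-antennal over wing discs against the mean log2 TPM of both libraries for the genes of D. melanogaster with at least 10 tags. The 6 glue genes (red circles) lie below 0 at low as well as high levels, together with Eig71Ee among the related salivary genes (triangles), while Pig1 lies near 0.

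The make-up of the glue tags differed between the discs. Sgs3 took 53.6% (exact binomial 95% interval 48.7 to 58.5) of all glue tags in eye-antennal and 54.9% (53.6 to 56.3) in wing discs. Sgs5 took 16.5% (13.1 to 20.4) in eye-antennal and 29.5% (28.2 to 30.7) in wing discs. Sgs7 took 16.7% (13.3 to 20.7) and 8.57% (7.83 to 9.35) of the same totals. The share of Sgs3 was thus about equal in the 2 libraries, that of Sgs5 was lower and that of Sgs7 higher in eye-antennal discs, beyond counting error. Sgs8 had 9.47% (6.82 to 12.7) of glue tags in eye-antennal and 5.62% (5.01 to 6.27) in wing discs, with separate intervals as well. Sgs1 had 2.43% (1.17 to 4.42) and 0.582% (0.396 to 0.826), and Sgs4 1.21% (0.395 to 2.81) and 0.864% (0.633 to 1.15). The intervals of Sgs1 were apart and those of Sgs4 overlapped.

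Tags of the abundant glue genes came almost entirely from 1 position. The main position held 100% (94.7 to 100) of the Sgs5 tags in eye-antennal and 99.6% (99.1 to 99.8) in wing discs. It held 97.4% (86.5 to 99.9) and 99.3% (97.6 to 99.9) of the Sgs8 tags, and 92.8% (83.9 to 97.6) and 92.3% (89.5 to 94.6) of the Sgs7 tags. For Sgs3 the share was 89.1% (84.3 to 92.9) in eye-antennal and 89.7% (88.6 to 90.8) in wing discs. The main positions were thus the same in both discs. A second Sgs3 site, at -609 bases from the main one, gave 20 and 213 tags, a difference in the same direction as at the main site with 197 and 2623 tags. The lower count of Sgs3 in eye-antennal discs was thus seen at both sites.

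Tags of Sgs1 and Sgs4 were less concentrated at 1 position. The main position held 50% (18.7 to 81.3) of Sgs1 tags in eye-antennal and 71.0% (52.0 to 85.8) in wing discs. At that position alone Sgs1 had 5 and 22 tags and was 5.74-fold (2.12 to 19.4) lower in eye-antennal discs, which met the rule for counting. For Sgs4 the main position held 20.0% (0.505 to 71.6) and 69.6% (54.2 to 82.3) of tags. With 1 and 32 tags there, Sgs4 was 41.7-fold (6.97 to 1698) lower in eye-antennal discs, against 12.0-fold over all its positions. Main positions were chosen by their tags over both discs, which for these 2 genes came mostly from wing discs. This choice favours a lower eye-antennal level there, so the larger ratios and the counting of Sgs1 depend in part on it. Of the 7 positions assigned to Sgs4, 4 with 6 tags in all lay farther from the main position than the gene is long, so that some tags counted for Sgs4 fall outside the transcript as now annotated. Among them were 2 and 1 of the 5 eye-antennal tags, at 3560 and 4208 bases. The positions of Sgs1 span 4343 bp, against a gene of 4015 bp. At 1393 bases after its main position Sgs1 had 3 tags in eye-antennal and 1 in wing discs.

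The files hold no strand. Reads from the 2 sides of 1 cut site start on opposite strands, and their positions then lie 18 bases apart, which allowed the strand to be read where both sides had tags. Over other D. melanogaster genes 7167 pairs of positions at this spacing were found in eye-antennal and 6540 in wing discs, against at most 53 and 42 at any other spacing between 15 and 22 bases. Read in this way, sense tags made up 93.6% of the paired tags of plus-strand genes in eye-antennal and 93.7% in wing discs, and 92.3% and 92.5% of those of minus-strand genes.

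By the same reading Sgs3 had 217 sense and 3 antisense tags in eye-antennal discs and 2836 and 78 in wing discs. Sgs5 had 68 and 0 in eye-antennal and 1561 and 4 in wing discs, and Sgs7 had 64 and 5 in eye-antennal and 421 and 35 in wing discs. Sgs8 had 38 and 0 in eye-antennal and 297 and 1 in wing discs. The tags of these 4 genes were thus mostly in the direction of the gene in both discs. Sgs1 had 5 sense and 2 antisense tags in eye-antennal and 22 and 5 in wing discs. The main position of Sgs4 had no partner, and its strand could not be read. At its paired positions Sgs4 had 0 sense and 1 antisense tags in eye-antennal and 3 and 8 in wing discs. The few Sgs4 tags with a readable strand were thus mostly antisense, and the Sgs4 counts include them.

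**Figure D4:**
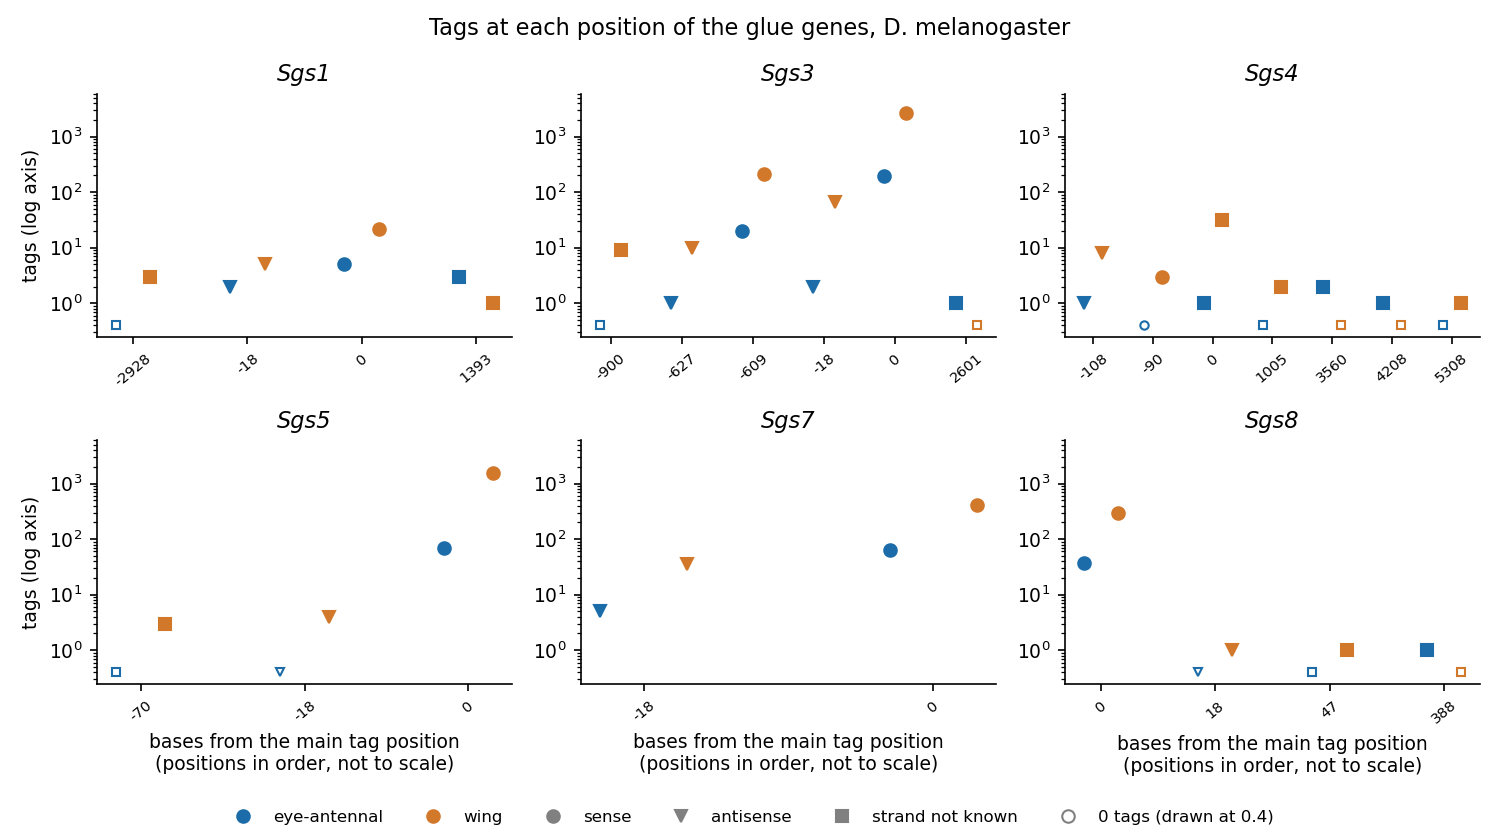
Tags (log axis) at each position of the 6 glue genes in the eye-antennal (blue) and wing (orange) library of D. melanogaster, ordered by distance in bases from the main position, with marker shape giving the orientation read from pairs 18 bases apart and open markers for 0 tags. One position per gene carries most tags of Sgs3, Sgs5, Sgs7 and Sgs8, at 197 against 2623 tags for Sgs3. The few tags of Sgs4 lie at 7 positions, with 1 of 5 eye-antennal and 32 of 46 wing tags at the main one.

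Other secreted products of the late larval and prepupal salivary gland did not all share the pattern of the glue genes in D. melanogaster. Of 17 genes in this list 8 were measured, with 1 counted as higher in eye-antennal discs, 2 as higher in wing discs and a median log2 ratio of -0.61. Eig71Ee, an ecdysone-induced gene of the 71E late puff, had 385 tags in eye-antennal and 3947 in wing discs, or 178 and 2141 TPM, and was 13.4-fold (12.03 to 14.9) lower in eye-antennal discs. Sgs5bis, a paralogue of Sgs5, had 82 and 166 tags, or 37.9 and 90.0 TPM, and was 2.64-fold (2.01 to 3.48) lower there. Eig71Ee and Sgs5bis were the pair counted towards the wing, and the ratio of Sgs5bis was closer to 1 than that of Sgs5, with separate intervals.

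Pig1, a pre-intermolt gene of the salivary gland that lies 799 bp before Sgs4, had 1343 tags in eye-antennal and 870 in wing discs, or 621 and 472 TPM. Its level was 1.18-fold (1.09 to 1.29) higher in eye-antennal discs and was not counted. The new glue genes ng1 to ng4 lie on the X chromosome like Sgs4 and Pig1. Here ng3 had 455 and 507 tags, or 210.4 and 275 TPM in eye-antennal and wing discs, 1.45-fold (1.28 to 1.65) lower in eye-antennal discs. For ng2 there were 113 and 140 tags, 1.61-fold (1.25 to 2.09) lower there. For ng1 the counts were 18 in eye-antennal and 8 in wing discs. None of these 3 was counted in either direction. Of ng4 there were 53 tags in eye-antennal and 0 in wing discs, at least 13.6-fold higher in eye-antennal discs when set against 3 tags, and 10.6-fold at the lower end of the exact interval. Eig71Ea had 38 and 86 tags, a log2 ratio of -1.55, and was not counted.

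Besides Pig1 and the glue genes themselves, Sgs5bis and CG7606 were the neighbours with most tags in D. melanogaster. CG7606, 423 bp after Sgs5, had 38 tags in eye-antennal and 121 in wing discs and was 4.15-fold (2.86 to 6.14) lower in eye-antennal discs. Sgs5bis lies 304 bp before Sgs5, so that the genes on either side of Sgs5 were also counted as higher in wing discs. Of the neighbours of Sgs8, Sgs7 and Sgs3 on 3L, CG33500, CG33272 and CG7512 each had 0 tags in both discs, and CG33272 lies between Sgs7 and Sgs3. Beside Sgs1, hoe2 had 9 and 1 tags and synr 3 and 0 in eye-antennal and wing discs.

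Marker genes of the disc types followed the labels. In D. melanogaster 7 of 7 eye-antennal markers were counted as higher in eye-antennal and 4 of 5 measured wing markers as higher in wing discs. The counts were 5 of 6 and 4 of 4 in D. yakuba, and 7 of 7 and 4 of 5 in D. virilis. Gene tags per library ran from 1843878 to 5543075.

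Of 12 factors of the salivary gland itself 10 were measured in D. melanogaster, and 0 were counted in either direction. Over all genes 7.97% were counted towards eye-antennal and 6.8% towards wing discs, so a count of 0 among 10 is near the background, and no difference from the glue genes was tested. Their summed level was 296 TPM in eye-antennal and 237 in wing discs, with a median log2 ratio of 0.47. The forkhead factor gene fkh, needed for salivary gland development and glue gene expression, had 39 and 7 tags, 4.27-fold (1.89 to 11.3) higher in eye-antennal discs and not counted. The bHLH factor gene sage, which acts with fkh, had 72 tags in eye-antennal and 110 in wing discs. CrebA, a regulator of secretory capacity, had 284 and 116, the glycosyltransferase gene pgant9 30 and 57, and PH4alphaSG1, a prolyl hydroxylase gene, 62 and 55. Only hkb of this list was at 0, in wing discs. Several of these genes are also used outside the salivary gland, so their tags do not measure that tissue alone.

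Genes listed for other larval tissues also differed between the discs of D. melanogaster. Of 8 fat body genes 4 were counted as higher in wing discs, with summed levels of 16951 TPM in eye-antennal and 29431 in wing discs and none at 0. Fbp1, a fat body receptor for storage proteins, was 7.44-fold (7.10 to 7.80) lower in eye-antennal discs, and the storage protein gene Lsp2 1.29-fold (1.26 to 1.31) lower. Fbp2 of this list went the other way, 1.16-fold (1.11 to 1.22) higher in eye-antennal discs, and was not counted. Of 11 measured hemocyte genes 4 were counted as higher in wing discs, with sums of 279 and 847 TPM in eye-antennal and wing discs. PPO1 had no tag under the identifier looked up. An identifier that the files do not use and a missing transcript cannot be told apart there. Midgut genes summed to 28.2 TPM in eye-antennal and 139.9 in wing discs, with 4 and 7 of 14 genes at 0, and 1 of 7 measured genes was counted as higher in eye-antennal and 2 in wing discs. On the other side, 5 of 10 larval muscle, 5 of 5 brain and 3 of 4 ring gland genes were counted as higher in eye-antennal discs. Their sums were 1943 TPM in eye-antennal and 684 in wing discs for muscle, 235 and 16.8 for brain, and 309.8 and 9.76 for ring gland. The midgut gene counted towards eye-antennal discs was lab, with 17 tags in eye-antennal and 0 in wing discs. The 2 counted towards wing discs were Jon66Ci, with 0 and 97.6 TPM in eye-antennal and wing discs, and epsilonTry, with 0.925 and 22.2. These 2 genes made up most of the midgut sum of 139.9 TPM in wing discs, so that sum does not stand for the list as a whole. As with the salivary gland list, some of these genes, such as lab and elav, can also be active in discs. Their tags do not measure the listed tissues alone. The part of any of these tissues in the glue tags was not tested.

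Of 15 measured ecdysone response genes of D. melanogaster 1 was counted as higher in each disc, near the 7.97% and 6.8% over all genes. ImpL2, which encodes a secreted binding protein of insulin-like peptides, had 217 tags in eye-antennal and 50 in wing discs and was 3.33-fold (2.44 to 4.62) higher in eye-antennal discs. ImpE1, an early ecdysone-inducible gene of discs, had 140 and 268 tags and was 2.50-fold (2.03 to 3.08) lower there.

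**Figure D5:**
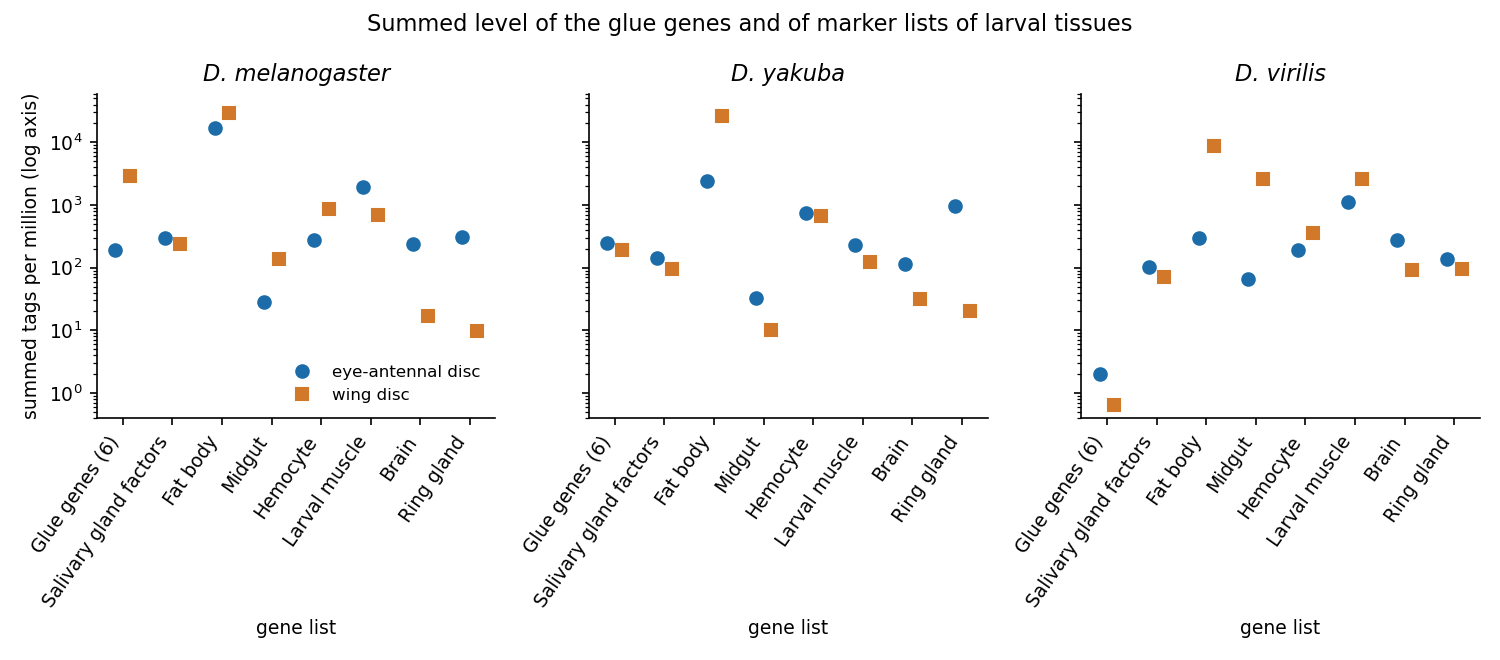
Summed TPM (log axis) of the 6 glue genes and of 7 marker lists of larval tissues in the eye-antennal (circles) and wing (squares) library of each species. In D. melanogaster the glue sum is 190.5 against 2887 while the salivary gland factors lie at 296 against 237, and fat body sums are lower in eye-antennal discs of all 3 species.

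In D. yakuba the gene mapping gave tags to Sgs1, Sgs5 and Sgs8, and their sum was not lower in eye-antennal discs. It was 1378 tags in eye-antennal and 411 in wing discs, or 249 (236 to 262) and 191 (173 to 210.02) TPM, 1.25-fold (1.12 to 1.40) higher in eye-antennal discs. Sgs8 had 1149 and 280 tags, or 207 (195 to 220) TPM in eye-antennal and 129.9 (115.1 to 146) in wing discs. Its level was 1.53-fold (1.34 to 1.75) higher in eye-antennal discs. The D. yakuba gene paired with it, FBgn0013173, was read on the plus strand, unlike Sgs8 of D. melanogaster. Whether its tags are those of Sgs8 or Sgs7 was not tested. Sgs5 had 151 and 61 tags, or 27.2 (23.1 to 31.9) and 28.3 (21.6 to 36.4) TPM, a ratio of 0.924 (0.682 to 1.27). Sgs5 thus did not differ between the D. yakuba discs beyond counting error. None of the 3 genes was counted in either direction, where 3.66% of 8118 genes were counted as higher in eye-antennal and 3.5% as higher in wing discs.

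The gene that the gene mapping pairs with Sgs1, FBgn0013172, had 78 tags in eye-antennal and 70 in wing discs of D. yakuba. These are 14.1 (11.1 to 17.6) and 32.5 (25.3 to 41.03) TPM, 2.40-fold (1.72 to 3.36) lower in eye-antennal discs and not counted. FBgn0013172 lies on 3L of D. yakuba, whereas Sgs1 lies on 2L of D. melanogaster. Its main position, 3L:11539937, is near that of the D. yakuba gene paired with Sgs8, 3L:11535182. In D. melanogaster Sgs3 and Sgs8 share a cluster on 3L. The genome mapping of the same libraries placed 3 of its 4 eye-antennal positions, with 15 tags, and 4 of its 5 wing positions, with 25 tags, on Sgs3 and none on Sgs1. It left the main position, with 63 and 45 tags, on no gene. The 2 mappings thus disagree on whether these tags are those of Sgs1 or of Sgs3, and every D. yakuba value of Sgs1 rests on the pairing of the gene mapping. In the genome mapping itself Sgs3 had 17 and 29 tags in D. yakuba and was 4.55-fold (2.42 to 8.83) lower in eye-antennal discs, which met the rule for counting.

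Sgs3, Sgs4 and Sgs7 had 0 tags in both D. yakuba libraries of the gene mapping, where a count of 0 would allow a paired gene up to 0.541 TPM in eye-antennal and 1.39 in wing discs. The files list only positions with tags, so a missing pair and a missing transcript cannot be told apart, and for an unpaired gene 0 sets no limit. The 17 and 29 tags of Sgs3 in the genome mapping, 3.26 and 14.4 TPM, lay above those values. Sgs4 and Sgs7 had 0 tags in the genome mapping as well. The position with most tags of Sgs8 held 1128 tags in eye-antennal and 274 in wing discs and gave the same ratio as all positions, 1.54-fold (1.35 to 1.76).

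All 8 fat body genes were counted as higher in wing discs of D. yakuba, with sums of 2449 TPM in eye-antennal and 25975 in wing discs. Salivary gland factors summed to 143 and 94.6 TPM with 0 of 8 counted. Hemocyte genes had 1 of 9 counted as higher in eye-antennal and 0 in wing discs. Towards eye-antennal discs were also counted 4 of 4 ring gland, 2 of 3 brain, 1 of 10 larval muscle and 2 of 5 midgut genes, and 0 of these towards wing discs. No difference between the species was tested for any list, nor was the part of these tissues in the glue tags. Of the related salivary products, Pig1 had 100 tags in eye-antennal and 28 in wing discs, Sgs5bis 6 and 2, and the other 15 genes had 0.

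In D. virilis the gene mapping gave tags to Sgs3 alone, with 4 in eye-antennal and 2 in wing discs, or 2.0 (0.544 to 5.12) and 0.646 (0.0783 to 2.34) TPM. Under 10 tags over both discs, Sgs3 was not measured, and the ratio of 2.60 (0.373 to 28.8) covered both directions. In this species 6.76% of 8864 genes were counted as higher in eye-antennal and 4.65% as higher in wing discs. The other 5 glue genes had 0 tags in the gene mapping. A count of 0 would allow up to 1.498 TPM in eye-antennal and 0.970 in wing discs for a paired gene, but sets no limit where no D. virilis gene is paired. In the genome mapping Sgs8 had 11 and 23 tags, or 7.75 (3.87 to 13.9) and 10.1 (6.41 to 15.2) TPM, above the 2.11 and 1.32 TPM that a count of 0 allows there. The gene mapping gives these positions to FBgn0011269, which it pairs with no glue gene. Fat body sums were 302 TPM in eye-antennal and 8868 in wing discs of D. virilis, with 5 of 6 measured genes counted as higher in the wing. The salivary gland factors summed to 101.4 and 69.8 TPM, with 0 of 4 counted. Of the related salivary products, Sgs5bis had 32 tags in eye-antennal and 6 in wing discs of D. virilis, 6.94-fold (2.86 to 20.3) higher in eye-antennal discs, and Pig1 had 12 and 10.

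Set side by side within a disc, levels of D. melanogaster and D. yakuba differed by gene. In eye-antennal discs Sgs8 had 18.03 TPM in D. melanogaster and 207 in D. yakuba, 11.5-fold (8.36 to 16.3) lower in D. melanogaster. In wing discs the values were 162 in D. melanogaster and 129.9 in D. yakuba, 1.25-fold (1.06 to 1.47) higher in D. melanogaster. The species difference of Sgs8, with FBgn0013173 taken as its D. yakuba pair, thus lay mostly in the eye-antennal libraries.

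For Sgs5 it lay in the wing libraries. There the level was 850.4 TPM in D. melanogaster and 28.3 in D. yakuba, 30.05-fold (23.3 to 39.5) higher in D. melanogaster. In eye-antennal discs the levels were 31.4 and 27.2 TPM, a ratio of 1.15 (0.854 to 1.55). Sgs1, with the pairing described above, was 3.04-fold (1.57 to 6.59) lower in D. melanogaster in eye-antennal and 1.93-fold (1.25 to 3.05) lower in wing discs. With FBgn0013172 read as Sgs3 in its place, Sgs3 was 7.26-fold (5.59 to 9.53) higher in eye-antennal and 48.8-fold (38.5 to 62.8) higher in wing discs of D. melanogaster. With the tags that the genome mapping places on Sgs3, it was 31.3-fold (19.1 to 54.7) higher in eye-antennal and 110.3-fold (76.6 to 165) higher in wing discs of D. melanogaster. Those D. yakuba tags leave out the main position of FBgn0013172, with 63 and 45 tags, and include 2 and 4 tags of another gene, FBgn0237524. The D. melanogaster counts include the main Sgs3 position. Tag sites and annotations can differ between species, so these ratios are not of like sites.

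Across the 3 species the disc difference was tested with edgeR's quasi-likelihood test with species as a block, but none of the 6 glue genes was paired in all 3 species, and none entered the test. Of 5953 genes tested 0.672% passed an adjusted p of 0.05. A fit to D. melanogaster and D. yakuba alone, chosen after seeing the data, tested Sgs1, Sgs5 and Sgs8 among 6640 genes, of which 1.19% passed. Sgs5 had a log2 difference of -2.49 with an adjusted p of 0.429 (edgeR, Benjamini-Hochberg), with log2 ratios of -4.90 in D. melanogaster and -0.12 in D. yakuba. At its main position alone Sgs5 of D. yakuba had a log2 ratio of 0.02. Sgs1, with FBgn0013172 as its D. yakuba pair, had -1.53 with an adjusted p of 0.321 in the same edgeR fit. By this pairing Sgs1 was lower in eye-antennal discs in 2 of 2 species. The genome mapping placed none of those D. yakuba tags on Sgs1, so the 2 species may not show the same gene. Sgs8, with FBgn0013173 as its D. yakuba pair, had -1.19 with an adjusted p of 0.745 by edgeR, lower in 1 of 2 species. None of the 3 passed, and the fit has 1 residual degree of freedom. Sgs5 passed with DESeq2 (-2.50, adjusted p of 0.0475), as did 1.75% of 6639 genes. It also passed in edgeR without a filter on low counts (-2.56, adjusted p of 0.00375), as did 3.66% of 8876 genes. The same edgeR fit to the genome mapping, in which 0.752% of 7047 genes passed, gave Sgs3 -3.30 with an adjusted p of 0.0501. The D. yakuba tags of Sgs3 in that fit leave out the main position of FBgn0013172, with 63 and 45 tags. With D. melanogaster and D. virilis, where 0.309% of 6799 genes passed, Sgs3 had -2.93 with an adjusted p of 0.554 by edgeR. In the genome mapping of all 3 species 0.542% of 6453 genes passed, and Sgs8 had -1.01 with an adjusted p of 0.733 by edgeR.

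The genes with the pattern most like that of the summed glue genes were sought in 2 ways, as a description. In D. melanogaster the nearest log2 ratios to the glue sum of -4.07 among 2851 genes with at least 200 tags were those of CG17134 (-4.11), the cuticle protein gene Cpr12A (-4.01), the homeobox gene Dr of wing discs (-3.90), CG33333 (-4.27) and the ribosomal protein gene RpLP2 (-4.30). CG17134 had 82 tags in eye-antennal and 1091 in wing discs. Over the 6 libraries, the highest Pearson correlations of log2(TPM + 1) with the glue sum among 5713 genes were those of Gnptab (0.997), ppk19 (0.993), CG18547 (0.992), MED23 (0.991) and CG1737 (0.990). These 6 points share species in pairs, and the low glue sums of D. virilis set most of the range. The sum holds tags of 6 genes in D. melanogaster, 3 in D. yakuba and 1 in D. virilis. Missing pairs may thus shape the pattern as well. Gnptab levels (eye-antennal, then wing) were 5.55 and 11.4 TPM for D. melanogaster, 6.13 and 5.10 TPM for D. yakuba, and 0.999 and 0.970 TPM for D. virilis. The D. virilis levels of Gnptab are at or under the 1.498 and 0.970 TPM that a count of 0 would allow there.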

How the data were processed

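Tag profiling with NlaIII was done on total RNA, per the labels' protocols. The authors deposited whole-number counts of tags per genomic position with an assigned gene, per the file headers. The submitters' processing notes name Bowtie 0.12.1. How many mismatches were allowed is not given in the sources used here, nor are the treatment of tags with several matches and the annotation release. Of the paired files for D. yakuba and D. virilis, those mapped to genes gave the values reported and those mapped to the genome served as an alternative.

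Counts were summed per gene and library, whatever their strand, and given per 1000000 gene tags (TPM). Of 12681 D. melanogaster identifiers with a tag, 11758 matched a symbol by the reference tables. Gene coordinates were looked up by identifier in BDGP6.54, without converting those of the files. Genes with at least 10 tags over both discs of a species were compared as ratios scaled by TMM factors, with exact conditional 95% intervals. Log2 ratios have 0.5 tags added to each count. A count of 0 allows up to 3 tags. With 1 library per species and disc, single species gave no test. For the 3 species edgeR 4.0.16 (glmQLFit, glmQLFTest, filterByExpr with a minimum count of 10; R 4.3.3, limma 3.58.1) took the species as the replicate, leaving 2 residual degrees of freedom. Its two-sided p-values then measure the spread between species, with a threshold of 0.05 after Benjamini-Hochberg adjustment. DESeq2 1.42.0 was an alternative. Intervals came from Python 3.11.15 and scipy 1.17.1. The count procedures were tested on simulated data.

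The 6 genes and the 11 gene lists (glue-related and late salivary secreted, ecdysone response, salivary gland, fat body, midgut, hemocyte, larval muscle, brain, ring gland, eye-antennal disc, wing disc) were chosen with earlier results of these data known. Named members of a list came from the 4 with most tags and the 4 whose ratio had the bound farthest from 1. Not all of these were named. Of the glue-related list all measured members were taken, and of neighbours those directly before and after each glue gene. Pattern-like genes were the 5 nearest by each measure. Named outside this rule, after their values were seen, were Fbp2, some salivary gland factors and genes of the lists at 0. Alternatives were scaling by total tags, all tags as denominator, 3 tags added, the main position alone, the genome mapping, minimums of 0 and 50 tags, and in the fits DESeq2, no TMM, no filter, no block and each species left out.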

Additional observations from a re-analysis of the deposited data

Results flagged for a closer look

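As paired by both mappings, Sgs8 differed in direction between species. Its log2 ratio of eye-antennal over wing discs was -3.30 in D. melanogaster and 0.61 in D. yakuba, a difference of -3.92, with 39 and 299 tags in D. melanogaster and 1149 and 280 in D. yakuba. With 1 library per species and disc the difference between the species was not tested. The D. yakuba gene was read on the plus strand, unlike Sgs8 of D. melanogaster, and whether its tags are those of Sgs8 or Sgs7 was not tested.

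Tags of 2 genes lie outside the comparisons because the gene mapping pairs them with no glue gene. FBgn0011269 of D. virilis had 39 tags in eye-antennal and 59 in wing discs, or 19.5 (13.9 to 26.6) and 19.1 (14.5 to 24.6) TPM, a ratio of 0.860 (0.559 to 1.31). The genome mapping placed 11 and 23 of these tags on Sgs8 and 1 eye-antennal tag on Mnt. FBgn0237524 of D. yakuba had 8 tags in eye-antennal and 9 in wing discs, above the limit of 3 tags, and the genome mapping placed 2 and 4 of them on Sgs3.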

How the results depend on the processing

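The labels give no replicate numbers, and the fits were paired by species as a block. Scaled by total gene tags, the log2 ratio of the glue sum in D. melanogaster was -3.92, against -4.07. With TMM-scaled library sizes Sgs3 and Sgs5 had 1671 and 896 TPM in the D. melanogaster wing library, against 1585 and 850.4. Alternatives for scaling, added tags, positions and mapping were compared only for genes with tags in both settings. Among these, 39 other log2 disc ratios, 38 levels and 20 species ratios moved by less than their counting intervals. Exceptions not on that log2 scale are Sgs4 of D. melanogaster, 41.7-fold lower in eye-antennal discs at its main position, outside the 4.78 to 38.7 over all positions, and Sgs1, which was then counted. Both main positions were chosen by tags that came mostly from wing discs. The uncounted D. virilis sum turned to -0.57 with the genome mapping, against 1.23. That mapping also changed which genes had tags, which left no ratios to compare. In D. yakuba Sgs1 went from 78 and 70 tags in eye-antennal and wing discs to 0 in both. Sgs3 went there from 0 in both to 17 and 29 and was then counted towards wing discs. In D. virilis Sgs3 went from 4 and 2 tags to 0, and Sgs8 from 0 to 11 and 23. With at least 50 tags, 323 genes were higher in eye-antennal discs of D. melanogaster (648 with 10), 164 in wing discs of D. yakuba (284) and 221 in eye-antennal discs of D. virilis (599), with fewer genes compared. In D. virilis scaling by total gene tags shifted log2 ratios by 0.25 and gave 711 genes higher in eye-antennal and 311 in wing discs, against 599 and 412.

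Across species 40 genes passed in edgeR, 221 with DESeq2, 104 without a filter and 0 without the species block, where 128 genes had an unadjusted p under 0.05 in edgeR. Leaving out 1 species in turn gave 13 (without D. melanogaster) to 79 genes (without D. virilis), and 21 without D. yakuba. For Sgs5 in D. melanogaster and D. yakuba, DESeq2 gave -2.50 and edgeR without a filter -2.56, both past the threshold. The cause was not tested. Few tags limit Sgs1 and Sgs4 in D. melanogaster and Sgs3 in D. virilis, while other counts of 0 in D. yakuba and D. virilis may come from missing pairs.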
